A study of Mus musculus with 8 samples.

Results

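Genes for the proteins of the cytosolic ribosome were examined in mature CD8 single-positive (CD8SP) thymocytes from mice with T cell-specific deletion of Ndrg3. The set comprised every protein-coding gene of the counts table named Rpsa, Rplp0, Rplp1 or Rplp2, or named Rpl or Rps followed by a number and the usual suffixes (a, x, y, l), without the Rps6 kinases. It held 83 of the 47937 genes in the table, which contained 21697 protein-coding genes. Of these 83, 51 encode proteins of the large subunit (Rpl, Rplp) and 32 proteins of the small subunit (Rps, Rpsa). Another 5 genes with matching names were left out because the annotation lists them as pseudogenes.

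RNA came from sorted thymocytes of the CD8SP TCRb+ MHC-I high phenotype, taken from the thymus of mice labelled as 6 to 7 weeks old, and ribosomal RNA was depleted during library preparation. Ndrg3ctrl mice had the genotype Ndrg3 +/fl;Lck-cre+ and Ndrg3TKO mice the genotype Ndrg3 fl/fl;Lck-cre+, with 4 mice and 4 libraries per group. Both groups thus carried the Cre recombinase, and the controls carried a floxed copy of Ndrg3 beside an intact copy. Ndrg3TKO was therefore not compared with mice that had only intact copies. Cre was driven by the proximal Lck promoter, which is active from early thymocytes on.

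Ribosomal proteins assemble with ribosomal RNA in the nucleolus and are needed in matched amounts, and most are encoded by a single active gene surrounded by many processed pseudogenes. Their mRNAs belong to the 5' TOP class, which begins with a C and a stretch of pyrimidines and whose translation depends on mTOR signaling and on the RNA-binding protein Larp1. A few members have paralogues with restricted or regulatory roles. In the thymus, Rpl22 is dispensable for most cells but required for the development of alpha-beta T cells, and it represses its paralogue Rpl22l1. Free Rpl5 and Rpl11, together with 5S RNA, bind Mdm2 and stabilize p53 when ribosome assembly is disturbed.

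Libraries held 21126698 to 32668081 counts. Values are given as CPM, the count relative to the library size after scaling by edgeR's trimmed mean of M-values (TMM), and the TMM factors lay between 0.964 and 1.03. Ndrg3 itself measured 79.3 to 81.5 CPM in Ndrg3ctrl and 48.4 to 55.3 CPM in Ndrg3TKO. The paper states that the loxP sites flank a critical exon, whereas these counts are for the whole gene. The 10 CD8SP markers, among them Cd8a and Cd8b1, summed to 8005 to 9386 CPM in Ndrg3ctrl and 8423 to 9222 CPM in Ndrg3TKO, none of them past the threshold. Markers of other cells were low in both groups: in any library, the summed level was at most 37.9 CPM for 7 double-positive thymocyte markers, 16.2 CPM for 5 NK and gamma delta markers, 13.2 CPM for 5 B cell markers, 8.18 CPM for 4 CD4 T cell markers, 5.41 CPM for 5 myeloid markers, 3.05 CPM for 5 thymic epithelial markers and 0.232 CPM for 5 erythroid markers. Among these, Klrb1c, an NK receptor gene, was the single one past the threshold and was higher in Ndrg3TKO, and Ms4a1, Ncr1, Hbb-bs, Hba-a1 and Hbb-bt had 0 counts. The 4 Y-linked genes Ddx3y, Eif2s3y, Kdm5d and Uty together reached 353 CPM in Ndrg3ctrl replicate 2, 389 CPM in Ndrg3TKO replicate 2 and 413 CPM in Ndrg3TKO replicate 3, and at most 0.0731 CPM in the other 5 libraries.

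The annotated starts of the genes were searched for the 5' TOP element in the RefSeq promoters of mouse build GRCm38.p6, which matched 63 of the 83 members. A C followed by at least 4 pyrimidines and lying within 5 bases of an annotated start was present in 29 of the 63 members (46.0%). It was present in 21.2% of all 27025 genes with such promoters, called all genes in this part and not limited to the counts table. With 10 bases allowed it was found in 39 members (61.9%) and in 34.4% of all genes. The following windows, 30 bases each from 15 before to 15 from the annotated start onwards, 5' to 3', are shown because they carry this element (in capitals) at members whose values are given below or whose run is long.
Rpl13a (chr7:45128731-45128760, − strand): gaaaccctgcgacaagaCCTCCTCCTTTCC
Rps9 (chr7:3704026-3704055, + strand): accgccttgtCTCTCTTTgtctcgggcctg
Rpl22l1 (chr3:28805493-28805522, + strand): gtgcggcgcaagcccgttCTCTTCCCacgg
Rpl39 (chrX:37085208-37085237, − strand): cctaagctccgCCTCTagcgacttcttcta
Rpl15 (chr14:18270972-18271001, − strand): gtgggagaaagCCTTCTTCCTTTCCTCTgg
Rps6 (chr4:86857353-86857382, − strand): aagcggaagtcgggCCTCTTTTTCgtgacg
In Rpl13a the run began at base 3 counted from the start (the first base after it is 1, the base before it −1). This run spanned 14 bases and continued past the end of the printed window. In Rps6 the run began at base −1 and spanned 10 bases. The windows of Rpl41, Rplp0 and Rpsa, 3 members that also enter the results, held no such run within 10 bases of the annotated start.
Rpl41 (chr10:128549154-128549183, − strand): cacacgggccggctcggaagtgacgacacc
Rplp0 (chr5:115559452-115559481, + strand): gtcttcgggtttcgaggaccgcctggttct
Rpsa (chr9:120127751-120127780, + strand): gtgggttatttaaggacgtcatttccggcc
A missing run states only that these letters are not at this annotated start. On the same 300-base promoters and on both strands, the ETS core CCGGAAG was present in 41.3% of the members and 9.93% of all genes, the SP1 box GGGCGG in 61.9% and 38.2%, the YY1 core AAGATGG in 15.9% and 7.28%, and the TATA box TATAAA in 11.1% and 15.7%. These 4 motifs were chosen after the files had been examined, and a match is a description and not a binding site. The median log2 fold change of the tested members was −0.077 in the 29 with a TOP start within 5 bases and −0.037 in the 31 without.

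Ribosomal protein mRNAs were among the most abundant transcripts of these thymocytes. The filter on low counts kept 80 members, and their median level over the 8 libraries was 397 CPM against 19.7 CPM for all 14633 tested genes. Of the 80, 73 exceeded 100 CPM and 48 were among the 500 genes with the highest mean. Together the 83 members took 3.78% ± 0.320 of all counts in Ndrg3ctrl and 3.71% ± 0.261 in Ndrg3TKO (SD, n = 4 each).

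Levels were compared between genes as CPM per kilobase of the principal transcript. On this scale Rplp1, a protein of the P stalk that recruits elongation factors, was highest with 1978 ± 268 in Ndrg3ctrl and 2009 ± 145 in Ndrg3TKO (SD, n = 4 each). Rplp0, the base of that stalk, followed with 1403 ± 164 in Ndrg3ctrl and 1410.4 ± 101 in Ndrg3TKO. Rps14, a protein of the small subunit platform, measured 1260.0 ± 177 in Ndrg3ctrl and 1176 ± 111 in Ndrg3TKO. Rpsa, the small subunit protein also known as the laminin receptor, measured 1222 ± 149.8 in Ndrg3ctrl and 1191 ± 86.6 in Ndrg3TKO, and Rps15, of the small subunit head, 1213 ± 146 in Ndrg3ctrl and 1181 ± 100.1 in Ndrg3TKO. Rplp1 exceeded Rplp0, and Rplp0 exceeded Rps14, by more than the larger SD within groups, whereas Rps14, Rpsa and Rps15 did not differ from one another by that much. Along the whole order, 70 of 79 neighbouring pairs differed by less than the larger SD.

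At the lower end, the paralogues and Rpl24 lay below the other members. Rpl22l1 measured 75.4 ± 10.5 in Ndrg3ctrl and 63.6 ± 4.63 in Ndrg3TKO CPM per kilobase, Rps27l 35.0 ± 5.51 in Ndrg3ctrl and 33.0 ± 5.37 in Ndrg3TKO, and Rpl7l1, a nucleolar relative of Rpl7, 28.5 ± 2.56 in Ndrg3ctrl and 27.3 ± 2.13 in Ndrg3TKO. Rpl24, of the large subunit, was lowest of the tested members with 7.82 ± 0.670 in Ndrg3ctrl and 7.23 ± 0.722 in Ndrg3TKO. Its counts numbered 101 to 178 per library, and it shares 47.0% of its exonic bases with Gm28037, an annotated transcript on the same strand with 0 counts in all libraries. Its 3 near-identical copies held counts equal to 40.9% of its own. How reads over the shared bases were counted is not given in the sources used here, and the level of Rpl24 is uncertain. Rps20 and Rps15a have principal transcripts of 3706 and 5130 annotated bases, against a median of 768 bases over the tested members, and their values per kilobase (122 and 119 in Ndrg3ctrl) are divided by that length.

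3 members failed the filter, all of them paralogues whose expression is known from other tissues. Rpl10l, a retrogene of the testis, had 0 counts in all 8 libraries, which allows at most 0.0921 to 0.147 CPM per library (3 counts). Rpl3l, of heart and skeletal muscle, had 1 count in Ndrg3ctrl replicate 3 and 0 in the others. Rpl39l, also of the testis, had 1, 9, 2 and 4 counts in the Ndrg3ctrl libraries and 1, 7, 9 and 2 in the Ndrg3TKO libraries. These values and floors cover counting error only. No expression of Rpl10l or Rpl3l above this floor was thus detectable, and Rpl39l overlapped between the groups.

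**Figure D1:**
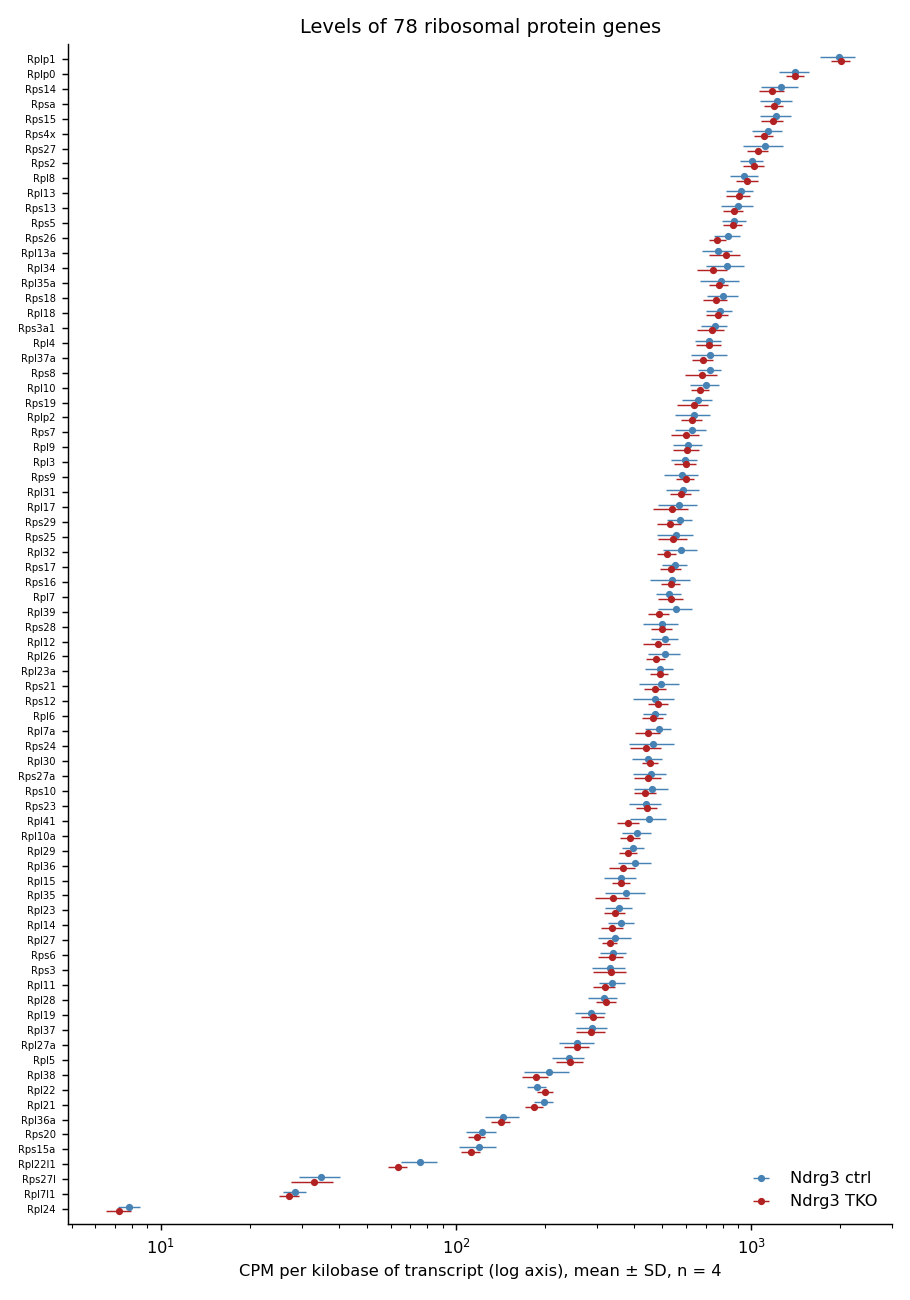
Level of the 78 ribosomal protein genes described singly in CPM per kilobase of transcript on a log axis, ordered by the mean over 8 libraries, with points and bars for the mean and SD of 4 libraries per group. Rplp1 (1978 in Ndrg3ctrl) is highest and Rpl24 (7.82) lowest, and the 2 groups lie on each other at this scale.

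The comparison of Ndrg3TKO with Ndrg3ctrl asked whether loss of Ndrg3 altered these mRNAs. None of the 80 tested members passed an adjusted p of 0.05 (quasi-likelihood test of edgeR, Benjamini-Hochberg over all tested genes). Over all tested genes, 168 of 14633, or 1.15%, passed, and 0.355% were called lower. With so small a share, 0 calls among 80 members does not set them apart from other genes. The lowest adjusted p of a member was 0.319, and DESeq2 called 0 members as well. With the replicate numbers as a block, which the labels do not tie to pairs of mice, 800 genes and 2 members were called. Those members were Rpl41 and Rpl22l1, both lower. Without the block, 3 members (3.75%) stood out at an unadjusted p under 0.05, all lower in Ndrg3TKO, against 10.9% of all genes. The values of the groups overlapped for each of the 80 members, and 7.04% of all tested genes had groups that did not overlap. The members shifted together between libraries, and each group held a high and a low library, as given below. These counts over members are therefore not counts of separate observations, and the overlap is no measure of stability between the groups.

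The intervals of this fit, each at 95% for a single gene, give a range for the change on the TMM scale. Log2 fold changes of the 78 members described singly ranged from −0.24 (Rpl22l1) to 0.093 (Rpl22), with a median SE of 0.0853. The 95% interval of each of the 80 lay within a log2 fold change of −0.5 to 0.5, and that of 48 within −0.25 to 0.25, the outermost bounds of the members described singly being −0.44 and 0.29. By sign alone, 22 members were higher and 58 lower in Ndrg3TKO, and their median log2 fold change was −0.039 against −0.00330 for all tested genes. This sign rested on single libraries. Without Ndrg3ctrl replicate 2 the median became 0.030, with 52 members higher, and without Ndrg3TKO replicate 1 it became 0.00964. Without Ndrg3ctrl replicate 4 it was −0.10, and without Ndrg3TKO replicate 2 it was −0.092, with 77 members lower in both cases. Within the 5 libraries without Y-linked counts the median was −0.063, and with Y-linked expression as a covariate −0.10. Within the 3 with Y-linked counts it was −0.15, where the single Ndrg3ctrl library was replicate 2, the library with the highest member levels. In bulk RNA, fewer cells expressing a gene and less RNA per cell cannot be told apart.

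**Figure D2:**
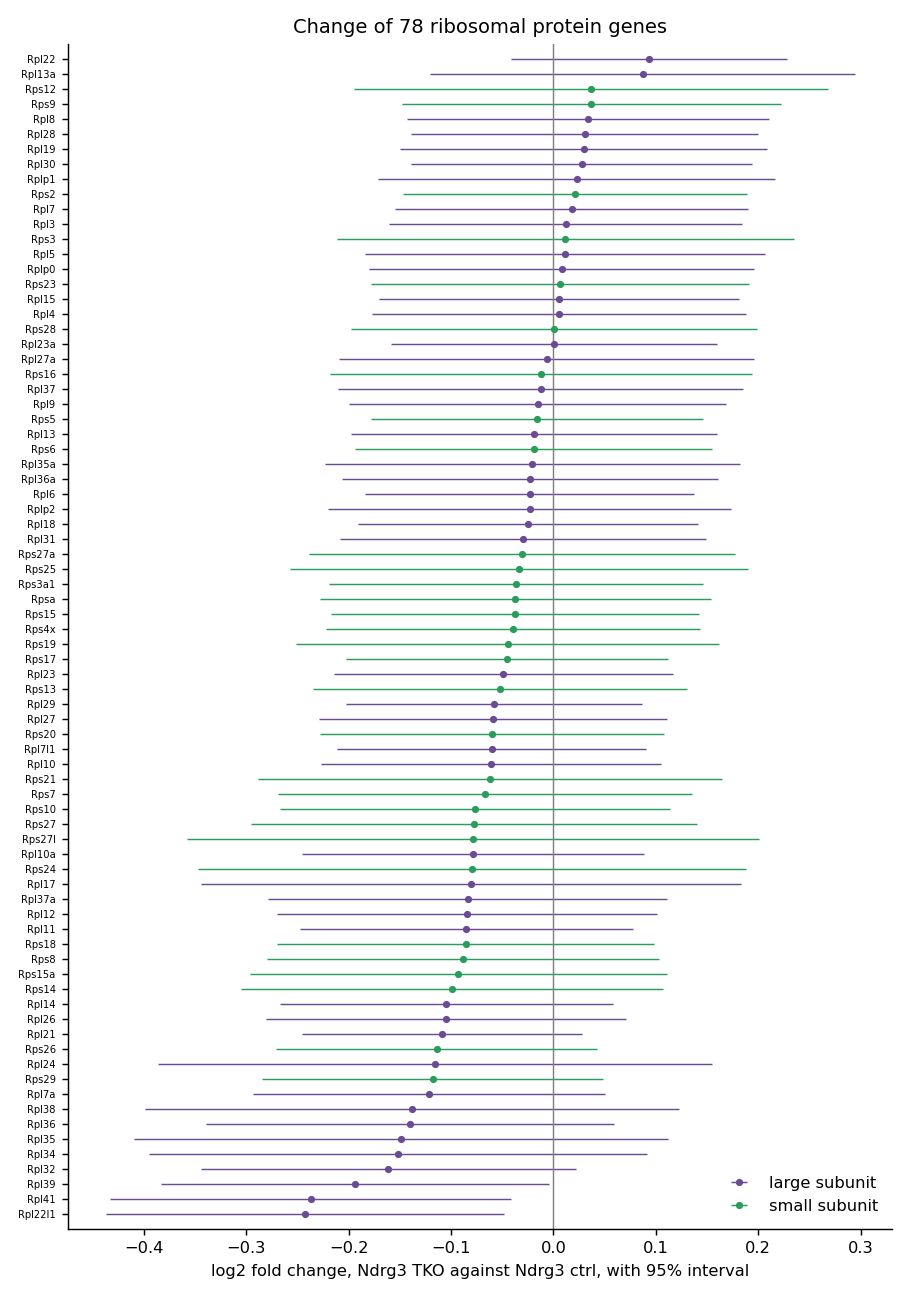
Log2 fold change of the 78 members described singly (Ndrg3TKO against Ndrg3ctrl, 4 libraries each) with its 95% interval, colored by subunit and ordered by size. Points run from −0.24 to 0.093, and the intervals of Rpl22l1, Rpl41 and Rpl39 are the ones that do not reach 0.

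The 3 members with an unadjusted p under 0.05 were Rpl22l1, Rpl41 and Rpl39. Rpl22l1 measured 44.6, 48.1, 38.7 and 35.1 CPM in the 4 Ndrg3ctrl libraries and 32.8, 38.8, 34.4 and 34.6 CPM in the 4 Ndrg3TKO libraries (log2 fold change −0.24, SE 0.0905, 95% interval −0.44 to −0.048, adjusted p = 0.319 by edgeR). Ndrg3TKO replicate 2 lay above Ndrg3ctrl replicates 3 and 4, so the groups overlapped. Rpl41, which encodes the shortest ribosomal protein, measured 231, 296, 217 and 239 CPM in the 4 Ndrg3ctrl libraries and 193, 234, 202 and 205 CPM in the 4 Ndrg3TKO libraries (log2 fold change −0.24, SE 0.0902, 95% interval −0.43 to −0.041, adjusted p = 0.345 by edgeR). Ndrg3ctrl replicate 2 was its highest library, and Ndrg3TKO replicate 2 lay above the Ndrg3ctrl replicates 1 and 3. The 4 annotated near-identical copies of Rpl41 held counts equal to 17.1% of its own, and its level is uncertain because the counting of reads that match several copies is not given. Rpl39, an X-linked gene for a small protein that lines the exit tunnel of the nascent chain, measured 369, 386, 317 and 290.5 CPM in the 4 Ndrg3ctrl libraries and 274, 330.2, 303 and 285 CPM in the 4 Ndrg3TKO libraries (log2 fold change −0.19, SE 0.0875, 95% interval −0.38 to −0.00381, adjusted p = 0.451 by edgeR). Rpl22l1 lies on chromosome 3 (28805436 to 28807424), Rpl41 on chromosome 10 (128548114 to 128549305) and Rpl39 on the X chromosome (37082520 to 37085402) of GRCm38. With Y-linked expression as a covariate, Rpl41 alone of the members passed the threshold (adjusted p = 0.0249 by edgeR, log2 fold change −0.29). With the replicate numbers as a block, Rpl41 (adjusted p = 0.00227 by edgeR) and Rpl22l1 (adjusted p = 0.0344 by edgeR) passed. Rpl39 did not pass with the block (adjusted p = 0.0917 by edgeR).

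Next by p among the lower members were Rpl32 and Rpl21, both of the large subunit. Rpl32 measured 313, 341, 295 and 248 CPM in the 4 Ndrg3ctrl libraries and 256, 296, 256 and 263 CPM in the 4 Ndrg3TKO libraries (log2 fold change −0.16, SE 0.0845, 95% interval −0.34 to 0.022, adjusted p = 0.534 by edgeR). Rpl21, the member with most near-identical copies in the annotation (50, holding counts equal to 16.8% of its own), measured 174, 194, 182 and 163 CPM in the 4 Ndrg3ctrl libraries and 149.9, 177, 168 and 167 CPM in the 4 Ndrg3TKO libraries (log2 fold change −0.11, SE 0.0636, 95% interval −0.25 to 0.028, adjusted p = 0.574 by edgeR). Neither separated the groups.

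Among the members with a positive log2 fold change, Rpl22 measured 92.4, 96.6, 82.1 and 84.6 CPM in the 4 Ndrg3ctrl libraries and 87.7, 102, 96.6 and 93.2 CPM in the 4 Ndrg3TKO libraries (log2 fold change 0.093, SE 0.0628, 95% interval −0.041 to 0.23, adjusted p = 0.638 by edgeR). Rpl13a, which in other cells is released from the ribosome to silence inflammatory mRNAs, measured 805, 933, 779 and 713 CPM in the 4 Ndrg3ctrl libraries and 713, 962, 874 and 884 CPM in the 4 Ndrg3TKO libraries (log2 fold change 0.087, SE 0.0962, 95% interval −0.12 to 0.29, adjusted p = 0.797 by edgeR). 29.4% of the exonic bases of Rpl13a are shared with Gm45713 on the same strand. Rps9 had a log2 fold change of 0.037 and ranged from 372 to 513 CPM in Ndrg3ctrl and from 424 to 496 CPM in Ndrg3TKO. Its sign turned without Ndrg3ctrl replicate 4 or Ndrg3TKO replicate 2.

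Grouped by role, the members showed the same narrow range, with no group holding a member past the threshold. By sign, 72.5% of the tested members and 51.2% of all tested genes were lower in Ndrg3TKO. The sign of the members rested on single libraries, so the splits by group below are not separate results. In the head of the small subunit, which contains the mRNA entry and tRNA contacts, 3 of the 14 members were higher and 11 lower by sign (median log2 fold change −0.036, range −0.12 to 0.037). In its body and platform, 3 of the 16 members were higher and 13 lower by sign (median log2 fold change −0.057, range −0.11 to 0.037). In the P stalk (Rplp0, Rplp1, Rplp2 and Rpl12), 2 of the 4 members were higher and 2 lower by sign (median log2 fold change −0.00762, range −0.084 to 0.023). Around the exit tunnel, where chaperones and the translocon dock, 3 of the 8 members were higher and 5 lower by sign (median log2 fold change −0.055, range −0.19 to 0.030). Of the 5S RNP, Rpl5 measured 495 ± 60.8 CPM in Ndrg3ctrl and 499 ± 52.5 CPM in Ndrg3TKO (SD, n = 4 each; log2 fold change 0.012, SE 0.0904, adjusted p = 0.980 by edgeR) and Rpl11 282 ± 28.5 CPM in Ndrg3ctrl and 266 ± 22.7 CPM in Ndrg3TKO (SD, n = 4 each; log2 fold change −0.085, SE 0.0757, adjusted p = 0.738 by edgeR). Across the 18 listed genes that are mutated in Diamond-Blackfan anaemia, 3 of the 18 members were higher and 15 lower by sign (median log2 fold change −0.063, range −0.15 to 0.012). The 4 X-linked members Rpl10, Rpl36a, Rpl39 and Rps4x were all lower by sign (median log2 fold change −0.050, range −0.19 to −0.023), Rpl39 being the one with an unadjusted p under 0.05. By subunit, the median log2 fold change was −0.027 over 48 members of the large and −0.042 over 32 members of the small subunit.

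The paralogue pairs were also compared as ratios within each library, which need no scaling between libraries. For every 100 counts of Rpl22, Rpl22l1 had 48.3, 49.7, 47.1 and 41.6 counts in the 4 Ndrg3ctrl libraries and 37.4, 38.1, 35.6 and 37.1 in the 4 Ndrg3TKO libraries. All Ndrg3TKO libraries lay below all Ndrg3ctrl libraries. Among single genes, 7.04% of all tested had groups that did not overlap, and how often other ratios separate them is not given here. The list of paralogues was chosen with earlier results of these data known. The log2 ratio was −1.10 ± 0.114 in Ndrg3ctrl and −1.43 ± 0.0418 in Ndrg3TKO (SD, n = 4 each), a difference of −0.33 (2-sided exact permutation test, p = 0.0286, the smallest that 70 splits of 8 libraries allow). Adjusted by Benjamini-Hochberg over the 3 ratios tested it was 0.0857, above the threshold of 0.05, which this design could not pass for a single ratio out of 3. The 5 libraries without Y-linked counts had 48.3, 47.1 and 41.6 against 37.4 and 37.1. The 3 with them had 49.7 in a single Ndrg3ctrl library against 38.1 and 35.6. Because the groups did not overlap over all 8 libraries, the order within these subsets was fixed and adds no support. Rpl22 and Rpl22l1 entered the ratio with opposite signs in the fit over all genes, and neither passed the threshold there. Near-identical copies held counts equal to 4.48% of those of Rpl22l1 and 0.0141% of those of Rpl22.

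**Figure D3:**
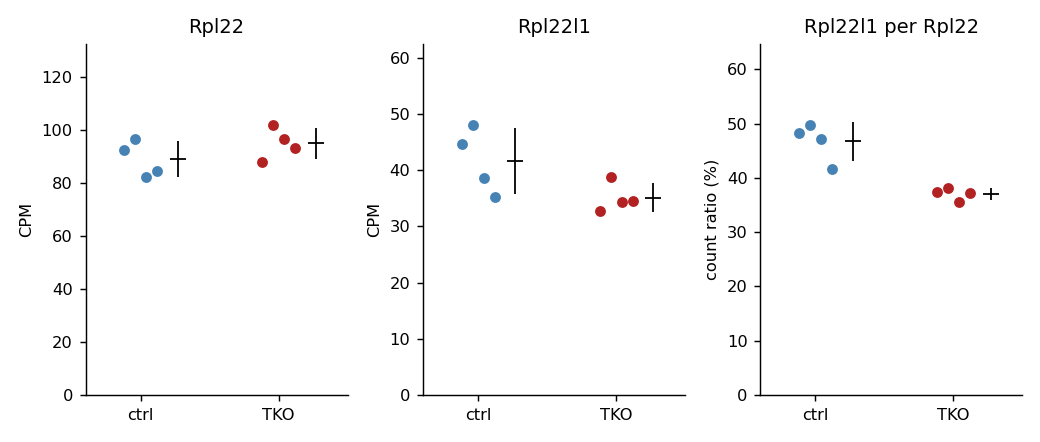
CPM of Rpl22 and of its paralogue Rpl22l1, and the count ratio of Rpl22l1 to Rpl22 in percent, in each library (points) with the mean and SD of 4 libraries per group (black). The single genes overlap between the groups, whereas the ratio spans 41.6 to 49.7% in Ndrg3ctrl and 35.6 to 38.1% in Ndrg3TKO.

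The other ratios overlapped between the groups. Rpl7l1 had 11.9, 12.1, 11.9 and 12.6 counts for every 100 of Rpl7 in Ndrg3ctrl and 11.9, 11.3, 11.6 and 11.1 in Ndrg3TKO (difference of log2 means −0.078, exact permutation p = 0.0857, adjusted p = 0.129). Rps27l, a p53-responsive relative of Rps27, had 3.94, 4.69, 4.87 and 4.81 counts for every 100 of Rps27 in Ndrg3ctrl and 3.76, 4.42, 4.41 and 5.62 in Ndrg3TKO (difference −0.018, exact permutation p = 0.971, adjusted p = 0.971). Rpl39l had too few counts for a ratio.

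Variation between libraries, each from a separate mouse, was larger than the difference between the groups, and the members varied together. The share of counts on the 83 members was 3.83, 4.19, 3.64 and 3.44% in the 4 Ndrg3ctrl libraries and 3.38, 4.01, 3.78 and 3.68% in the 4 Ndrg3TKO libraries. Relative to each gene's mean over the 8 libraries, the median member lay 0.22 (log2) higher in Ndrg3ctrl replicate 2 and 0.14 higher in Ndrg3TKO replicate 2, and it lay at −0.16 in Ndrg3ctrl replicate 4 and −0.15 in Ndrg3TKO replicate 1. In Ndrg3ctrl replicate 2, 79 of 80 members were above their own mean, and in Ndrg3TKO replicate 2 all 80 were. In Ndrg3ctrl replicate 4 and in Ndrg3TKO replicate 1, 78 of 80 were below it. Each group thus held a high and a low library, and the groups overlapped. The median over all tested genes moved by at most 0.00918 in any library, which follows from the scaling, as it levels the bulk of genes between libraries. Both high libraries had Y-linked counts, as did Ndrg3TKO replicate 3, in which the median member lay at −0.00131. Across all tested protein-coding genes, Spearman's rho between this deviation and transcript length was −0.200 in Ndrg3ctrl replicate 2 and −0.0770 in Ndrg3TKO replicate 2. It was −0.0848 in Ndrg3ctrl replicate 4 and 0.291 in Ndrg3TKO replicate 1. Mouse and library cannot be told apart here. The part of Y-linked counts, of length or of other differences between mice or libraries in the shared level was not tested.

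**Figure D4:**
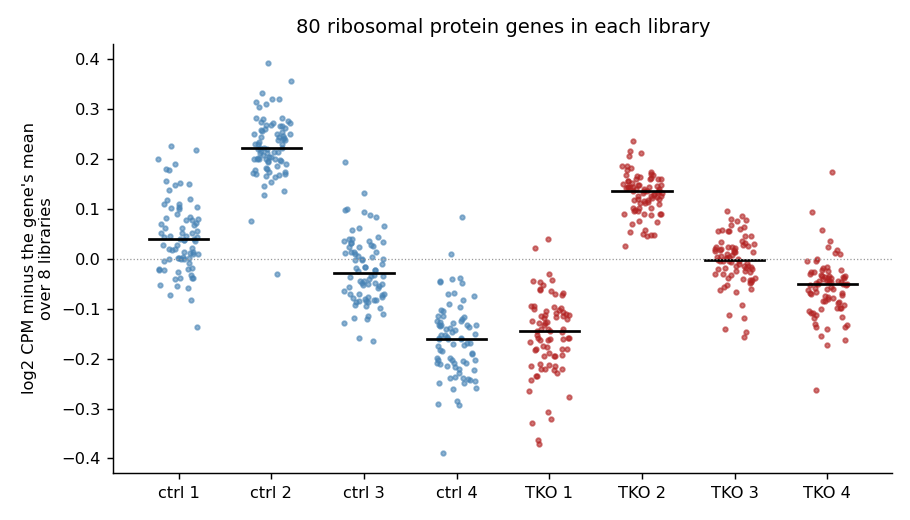
Log2 CPM of each of the 80 tested members minus its own mean over 8 libraries, one point per gene, with a black line for the median in each library (blue, Ndrg3ctrl; red, Ndrg3TKO). Members shift together, from −0.16 in Ndrg3ctrl replicate 4 to 0.22 in Ndrg3ctrl replicate 2.

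With the group means removed, the correlation between pairs of members over the 8 libraries had a median of 0.895 over 3160 pairs, and 99.9% of the pairs were positive. Over all pairs of tested genes the median was −0.000855, and among the 452 other genes of the 500 with the highest mean it was 0.209. The points of such a correlation are the 8 libraries and share their depth and scaling, so it is given as a description. Rpl24 (0.364), Rps29 (0.532) and Rpl10a (0.687) had the lowest median correlation with the other members. Genes of other lists were compared with the median member over the 8 libraries. The median of this correlation was 0.944 for the ribosome partners Fau, Rack1 and Rpl36al, 0.856 for 39 translation factors and 0.937 for the 10 CD8SP markers. It was 0.643 for 40 ribosome biogenesis genes and 0.104 for 11 tested snoRNA host genes. This measure differs from the correlation between pairs of genes and cannot be set against it, and its value over all tested genes is not given here. The ratio of large to small subunit counts was 1.20 ± 0.0152 in Ndrg3ctrl and 1.21 ± 0.00497 in Ndrg3TKO (SD, n = 4 each).

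Because the members moved together, each was also expressed relative to the median member of its own library, a scale chosen after the values had been seen and used without a test. The median SD within groups fell from 0.150 to 0.0564 (log2) on this scale. The groups then did not overlap for 10 of the 78 members described singly (12.8%), 7 higher and 3 lower in Ndrg3TKO, against 2.55% of all tested genes on the same scale, where the shared level is removed from the members but added to the spread of other genes. Rps9, of the small subunit body, lay at 0.11, 0.11, 0.13, 0.095 in the Ndrg3ctrl libraries and 0.26, 0.20, 0.21, 0.21 in the Ndrg3TKO libraries (difference of means 0.11). Rpl8 (difference 0.10), Rpl28 (0.10), Rps23 (0.078), Rpl15 (0.078), Rps16 (0.064) and Rpl35a (0.055) were the other higher members. Rpl22l1 lay at −3.20, −3.29, −3.30, −3.29 in the Ndrg3ctrl libraries and −3.41, −3.46, −3.46, −3.42 in the Ndrg3TKO libraries (difference −0.17), and Rpl41 (−0.16) and Rpl39 (−0.12) were the other lower members. Rpl22 lay 0.16 higher in Ndrg3TKO with overlapping groups. These names were chosen after their values were seen, and all 10 differences were between 0.055 and 0.17 in size.

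**Figure D5:**
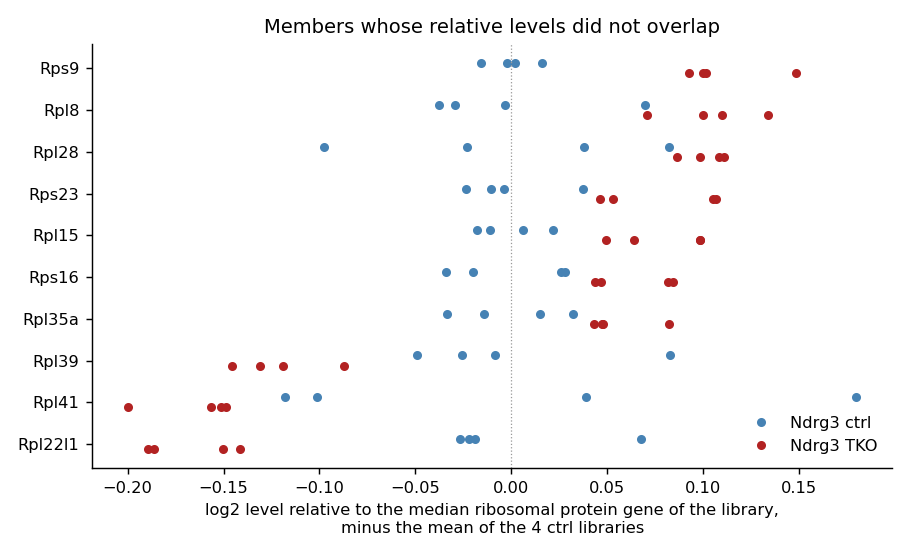
Log2 level relative to the median ribosomal protein gene of the same library, minus the mean of the 4 Ndrg3ctrl libraries, for the 10 members described singly whose groups did not overlap, one point per library. Rps9 is 0.11 higher and Rpl22l1 differs by −0.17 on average.

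Genes that work with the ribosome were examined by lists. None of the partners Fau, Rack1 and Rpl36al, which lie outside the symbol rule, passed the threshold: Rack1, a scaffold on the small subunit head, measured 1092 ± 105 CPM in Ndrg3ctrl and 1105 ± 76.4 CPM in Ndrg3TKO (SD, n = 4 each; log2 fold change 0.017, SE 0.0784, adjusted p = 0.962 by edgeR), and Fau, whose product contains the small subunit protein eS30, 268 ± 34.7 CPM in Ndrg3ctrl and 263 ± 27.5 CPM in Ndrg3TKO (SD, n = 4 each; log2 fold change −0.024, SE 0.0913, adjusted p = 0.954 by edgeR). Of 39 translation factors, 1 passed, against 1.15% of all tested genes. This was Eif5, the activator of GTP hydrolysis at start codon selection. It measured 265 ± 7.37 CPM in Ndrg3ctrl and 224 ± 14.8 CPM in Ndrg3TKO (SD, n = 4 each; log2 fold change −0.24, SE 0.0547, adjusted p = 0.0496 by edgeR), close to the threshold. Of 40 ribosome biogenesis genes, among them the nucleolar proteins Fbl, Ncl and Npm1, 0 passed, with 3 at an unadjusted p under 0.05, 8 higher and 32 lower by sign (median log2 fold change −0.068, range −0.20 to 0.050). Of 11 tested snoRNA host genes, which include the 5' TOP transcript Gas5, 0 passed (median log2 fold change −0.054, range −0.22 to 0.22). Of 16 regulators of 5' TOP mRNAs and ribosome synthesis, 0 passed: Myc measured 115 to 157 CPM in Ndrg3ctrl and 102 to 127 CPM in Ndrg3TKO (log2 fold change −0.23, adjusted p = 0.428 by edgeR), Mtor 128 ± 9.72 CPM in Ndrg3ctrl and 136 ± 6.68 CPM in Ndrg3TKO (SD, n = 4 each; log2 fold change 0.092, SE 0.0597, adjusted p = 0.621 by edgeR) and Larp1 359 ± 22.1 CPM in Ndrg3ctrl and 375 ± 19.3 CPM in Ndrg3TKO (SD, n = 4 each; log2 fold change 0.065, SE 0.0583, adjusted p = 0.740 by edgeR).

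Targets of p53, the factor that free Rpl5 and Rpl11 stabilize, were listed for comparison. The list, chosen with earlier results of these data known, held 16 genes, of which Cdkn1a, Eda2r and Perp failed the filter. Of 13 tested, 3 passed as higher and 0 as lower, where 0.793% of all tested genes were called higher and 0.355% lower. The listed genes together summed to 804 to 919 CPM in Ndrg3ctrl and 851 to 920 CPM in Ndrg3TKO, so the sums overlapped. The 3 calls are given as a description and are no test of p53 activity. Bbc3, the proapoptotic gene for Puma, measured 10.8 ± 1.92 CPM in Ndrg3ctrl and 15.8 ± 1.15 CPM in Ndrg3TKO (SD, n = 4 each; log2 fold change 0.56, SE 0.117, adjusted p = 0.0348 by edgeR). Zmat3, which encodes an RNA-binding protein, measured 50.3 ± 4.03 CPM in Ndrg3ctrl and 65.7 ± 5.91 CPM in Ndrg3TKO (SD, n = 4 each; log2 fold change 0.38, SE 0.0730, adjusted p = 0.0184 by edgeR). Phlda3, an inhibitor of Akt, measured 0.508 ± 0.297 CPM in Ndrg3ctrl and 1.91 ± 0.406 CPM in Ndrg3TKO (SD, n = 4 each; log2 fold change 1.97, SE 0.316, adjusted p = 0.0053 by edgeR). Its level was low, as 3 counts equal 0.101 to 0.147 CPM in the Ndrg3ctrl libraries, so the size of its change is uncertain. The remaining tested targets did not pass, and Rps27l, a ribosomal member that responds to p53, had a log2 fold change of −0.078 (adjusted p = 0.876 by edgeR).

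The members share features that can affect counting. Their transcripts had a median length of 768 bases, against 2817 bases for all tested protein-coding genes, with a median GC content of 51.7% against 50.6%. Across the 80 members, Spearman's rho between the log2 fold change and transcript length was 0.247, and 0.339 for coding length, so that the shorter members tended to the lower values, and across all tested protein-coding genes it was 0.126 for transcript length. With GC content it was −0.00530 over the members. Genes are not independent replicates, and these values carry no test. Near-identical copies (95% identity over at least 60 coding bases) were annotated for 77 of the 83 members, with a median of 5 and at most 50 per member, and their counts came to a median of 0.872% of the member's own, with the largest shares in Rpl24 (40.9%), Rpl41, Rpl21 and Rpl29 (16.0%). How reads with several matches were handled is not given in the sources used here.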

How the data were processed

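Total RNA of sorted CD8SP thymocytes was sequenced from 8 mice after depletion of ribosomal RNA. Per gene, the authors deposited raw, unnormalized counts, made with featureCounts on the GENCODE M9 annotation after cutadapt trimming and STAR alignment to GRCm38.p4. Strand and the handling of reads with several matches are not given in the sources used here. Symbols, positions and transcripts came from GENCODE M21 (GRCm38), which matched 47310 of 47937 genes (98.7%) by Ensembl identifier.

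Counts were filtered by filterByExpr, scaled by TMM and tested in edgeR 4.0.16 (R 4.3.3) with glmQLFit (robust) and glmQLFTest, at an adjusted p of 0.05 (Benjamini-Hochberg, 14633 genes). Intervals are at 95%. The study's methods name DESeq2 with no block. DESeq2 1.42.0 and limma-voom (3.58.1), RLE scaling, library totals, TMM without the members, other filters, a replicate block, a Y-linked covariate and leaving out each library were alternatives. Fits restricted by Y-linked counts and the scale relative to the median member were added after the data were seen. Paralogue ratios, with 0.5 counts added, were compared by 2-sided exact permutation tests. Procedures were tested on simulated data. The members and gene lists were chosen with earlier results of these data known. Genes named singly are the 5 higher and 5 lower members with the smallest p, the 5 highest and 3 lowest per kilobase, the paralogues, the members that failed the filter, the P stalk, 5S RNP and X-linked members, and listed genes past the threshold. Of these and the ribosome partners, 3 genes are not reported here, and 78 tested members are described singly. Replicates are separate mice. Libraries of 21126698 to 32668081 counts limit precision for members of few counts.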

Additional observations from a re-analysis of the deposited data

Results flagged for a closer look

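Of 38 groups of 4 libraries examined for a single library far from the others (Dixon's test at 95%), 1 was found, where chance gives about 1 in 20. Mitochondrially encoded genes took 0.636% of the counts in Ndrg3ctrl replicate 4, against 0.803 to 0.820% in the other Ndrg3ctrl libraries and 0.571 to 0.712% in Ndrg3TKO. The same library had the lowest share of ribosomal protein counts of its group (3.44%). Whether these values are related was not tested.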

How the results depend on the processing

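Over all genes, the count of 168 calls became 309 with DESeq2, 274 without a filter, 412 with the Y-linked covariate, 92 and 40 within the libraries without and with Y-linked counts, and 90 to 158 with a library left out. The count of called members stayed at 0 except with the Y-linked covariate (1, Rpl41, log2 fold change −0.29) and the replicate block. Leaving out a library moved the median log2 fold change of the members between −0.10 and 0.030, and its sign turned without Ndrg3ctrl replicate 2 or Ndrg3TKO replicate 1. Scaling alternatives left it between −0.039 and −0.031.

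The replicate numbers shared by the groups were tried as a block. Same-numbered libraries correlated with r = 0.240, 0.512, −0.0572 and 0.387 in their deviations from the group means (mean 0.271, against −0.0883 for different numbers). Not every pair exceeded 0.1, so the numbers were not taken to pair the mice. With the replicate block 800 genes and 2 members were called, Rpl41 (adjusted p = 0.00227 by edgeR) and Rpl22l1 (adjusted p = 0.0344 by edgeR), both lower. The median log2 fold change of the members with the block was −0.036.

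Of the 10 members followed singly, 6 kept their sign throughout. Signs turned for Rps9 with the Y-linked covariate, without Ndrg3TKO replicate 2, without Ndrg3ctrl replicate 4 and within the libraries with Y-linked counts (−0.011, −0.013, −0.036 and −0.13, −0.036 to 0.12 with a library left out), for Rpl13a in the last of them (−0.025), for Rps27l without Ndrg3TKO replicate 1 (0.022) or Ndrg3ctrl replicate 2 (0.018, with −0.16 to 0.022 over the libraries left out), and for Rpl7l1 relative to the median member (0.00687).

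The log2 difference of the Rpl22l1/Rpl22 ratio ranged from −0.39 to −0.30 with a library left out, where the exact permutation test reaches p = 0.0571 at the lowest. That of Rps27l/Rps27 ranged from −0.12 to 0.069 and turned to 0.013 without Ndrg3ctrl replicate 3, 0.00790 without Ndrg3ctrl replicate 4 and 0.069 without Ndrg3TKO replicate 1. The share of members with a TOP start was 61.9% with 10 bases allowed. Where values moved, the cause was not tested. Depth limits Rpl39l, Rpl3l and Rpl10l, which were not testable, and shared sequence limits Rpl24, Rpl41 and Rpl21.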
